A study of Mus musculus with 8 samples.

Results

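The cytosolic ribosomal protein genes were taken as the protein-coding genes whose mouse symbol is Rpl or Rps followed by a number, with the lettered forms such as Rps27l and the P stalk genes Rplp0 to Rplp2, together with Rpsa; Rps6k kinase genes and symbols holding -ps were left out. Of 25006 gene identifiers in each library, 86 symbols matched and 84 were annotated as protein-coding: 49 genes of the large (60S) subunit, 3 of the P stalk and 32 of the small (40S) subunit, Rpsa included. A filter on low counts kept 83 of them among 15310 genes tested; the gene it removed, Rpl10l, had 0 counts in all 8 libraries. RNA was sequenced from tumors that 4T1 cells, a mouse mammary carcinoma line taken to stand for triple-negative disease, formed in the fat pad of mice within 20 days. The hosts were NSG mice, which lack mature T, B and NK cells, or immunocompetent Balb/c mice. The 4 groups, with 2 libraries each, were NSG with wild-type 4T1 (the parental line and a line stably expressing vCas9), NSG with CD95 knockout 4T1 (clones 54 and 69), Balb/c with wild-type 4T1 and Balb/c with CD95 knockout 4T1, the same 4 lines being used in both hosts. CD95, encoded by Fas, is a death receptor, and its knockout by CRISPR/Cas9 concerned the injected cells and not the host. The 2 libraries of a group therefore came from different lines, 2 clones stood for the knockout, the ages of the mice are not given in the labels, and the number of tumors per library is not given either.

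Each ribosome carries about 1 copy of every ribosomal protein, the acidic stalk proteins being present in more, and the genes are transcribed at high and similar levels in nearly all cells. Most of their mRNAs, like those of several translation factors, begin with a terminal oligopyrimidine (TOP) tract, through which the mTORC1 kinase sets their translation. In growing tissue they rank among the most abundant mRNAs. RNA polymerase I makes the ribosomal RNA that the proteins join, and nucleolar factors assemble the subunits.

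Total counts ranged from 8680070 to 19655945 per library. The micro-RNA locus Mir6236 took between 0.110% and 5.79% of them. Fas was counted in the knockout libraries too, at 29.5 and 12.9 counts per 1000000 (CPM) in NSG against 33.9 and 22.6 in NSG wild type, and at 27.1 and 33.7 in Balb/c against 51.6 and 46.9 in Balb/c wild type, and counts per gene do not show the edited site. Marker genes differed between groups: the summed level of 6 T cell markers was between 3.75 and 8.53 CPM in the NSG libraries and between 264 and 318 CPM in the Balb/c libraries, and that of 5 NK cell markers was at most 0.597 CPM in NSG and at least 103 CPM in Balb/c. Ncr1, which defines NK cells, had 0 counts in all 4 NSG libraries, while each of the 6 T cell markers had a count in at least 1 of them. The 6 markers of 4T1 epithelium summed to between 694 and 3754 CPM over the 8 libraries. In these bulk samples, fewer cells of a type and less RNA per cell cannot be told apart.

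Rpl26 is shown by sequence because it had the largest host difference among the members and because the genome holds a processed pseudogene, Gm15772, that matches its coding region almost base for base. Rpl26 (ENSMUSG00000060938) lies at chr11:68901583-68906989 on the plus strand of GRCm38, and Gm15772 (ENSMUSG00000062353) at chr5:3236431-3236868, also on the plus strand. Over the 435 coding bases of Rpl26, 2 substitutions separated them, C177T and T288C, with positions counted from the A of the start codon and the base of Rpl26 given first. The stretches that hold these 2 positions are shown because they are the places in the coding region where reads of the 2 genes differ; capitals mark the differing base.
Rpl26, coding bases 163 to 191: gttcaggttgttcgCggacactacaaagg
Gm15772, same bases: gttcaggttgttcgTggacactacaaagg
Rpl26, coding bases 274 to 302: ggcacaaccgtccaTgtgggcatccaccc
Gm15772, same bases: ggcacaaccgtccaCgtgggcatccaccc
The annotated transcript of Gm15772 is 438 bases long, so it holds little beyond the coding region, and the untranslated ends of Rpl26 have no counterpart in it.

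A second set of sequences shows pyrimidine-rich stretches near the transcript starts that RefSeq lists. RefSeq's promoter table for GRCm38.p6, which holds 250 bases before and 50 bases after each listed start, matched 64 of the 84 members. A run of at least 10 consecutive pyrimidines (C or T) on the gene's own strand, with at least 10 of its bases between 50 bases before and 50 bases after the listed start, was found for 44 of the 64 members (68.8%) and for 20.6% of all 27025 genes in the table. In the 6 windows printed here, the position of the longest run varied from 52 bases before the listed start to the end of the searched stretch 50 bases after it, so the run is not shown to be the first bases of the mRNA. Windows of 30 bases are given for the members named for size in the host comparisons that had a run; capitals mark it, with its bases counted from the listed start (no base 0). The listed starts of Rps2 and Rps24 lie 1947 and 3553 bases inside the gene as GENCODE bounds it.
Rpl26, chr11:68901507-68901536, plus strand, run at -52 to -37: ctcccaaCCTCCTCTCCCCTTTCgctccga
Rps2, chr17:24720083-24720112, plus strand, run at 41 to 50, where the window ends: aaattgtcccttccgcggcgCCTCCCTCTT
Rpl31, chr1:39367825-39367854, plus strand, run at -18 to -6: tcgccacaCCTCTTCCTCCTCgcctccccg
Rps24, chr14:24490698-24490727, plus strand, run at 39 to 50, where the window ends: ttggtcggcagtgagcggTCCTCTTTTCCT
Rpl34, chr3:130730330-130730359, minus strand, run at -17 to 3: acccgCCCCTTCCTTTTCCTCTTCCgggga
Rpl35a, chr16:33056469-33056498, plus strand, run at 25 to 37: ggggcttgCCTTCCTCTTTCCgccatcttg
Of short factor motifs searched on both strands of the 300-base windows, CCGGAAG (the ETS family core) was present for 40.6% of the 64 members and 9.93% of all genes, GGGCGG (the GC box) for 62.5% and 38.2%, AAGATGG (the YY1 core) for 15.6% and 7.28%, CACGTG (the E-box) for 9.38% and 8.09%, and TATAAA (the TATA box) for 10.9% and 15.7%. These are letter matches, and nothing about binding was measured.

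Levels are compared between genes as CPM per kilobase of the gene's longest coding transcript in the annotation's basic set, averaged over the 8 libraries. That length ran from 383 bases for Rpl36 to 5179 for Rps15a, so the order of levels depends also on which transcripts are annotated. The median over the 83 members tested was 358 CPM per kb. Rps12, a 40S protein at the head of the small subunit, had the highest level at 1053 CPM per kb, with libraries between 824 and 1387. Rps29, a small zinc-binding 40S protein, followed at 1038 CPM per kb, with libraries between 731 and 1677, and Rplp1, an acidic stalk protein, had 936 CPM per kb, with libraries between 719 and 1291. These 3 ranges overlap, so that their order does not hold beyond the spread of the libraries. At the other end, Rpl3l, the paralog of Rpl3 known from striated muscle, was at 1.21 CPM per kb, and Rpl39l, the paralog of Rpl39 known from testis, at 0.927 CPM per kb. The next lowest were Rpl7l1 at 22.7 and Rpl29 at 33.7 CPM per kb. The order of the members was similar in all libraries, with Spearman's rho between 0.899 and 0.991 over the 28 pairs of libraries and 83 members, given as a description since the libraries share the genes' lengths and the counting. Of the 84 members, 76 had at least 1 other annotated transcript with at least 95% identity over at least 80% of the coding region, up to 57 for Rpl21, and across the 83 members the number of such copies and the level per kb had a Spearman's rho of 0.088. How reads that fit several genes were counted is not given in the sources used here, so levels of members with copies are uncertain.

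The members' summed share of each library's counts was lowest in Balb/c wild type (see the plot of share by host). It was 3.65% and 3.31% in NSG wild type (mean 3.48% ± 0.241, SD, n = 2), 2.71% and 2.93% in NSG knockout (2.82% ± 0.157, n = 2), 2.20% and 1.82% in Balb/c wild type (2.01% ± 0.269, n = 2) and 3.35% and 2.58% in Balb/c knockout (2.96% ± 0.542, n = 2). The knockout libraries were below the wild-type libraries in NSG and above them in Balb/c, without overlap in either host. Grown in Balb/c mice, the parental line had 0.602 of its NSG share, the vCas9 line 0.549, clone 69 0.880 and clone 54 1.23. The share is given as a description, without a test; an exact permutation test of 2 libraries against 2 cannot reach 0.05.

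**Figure D1:**
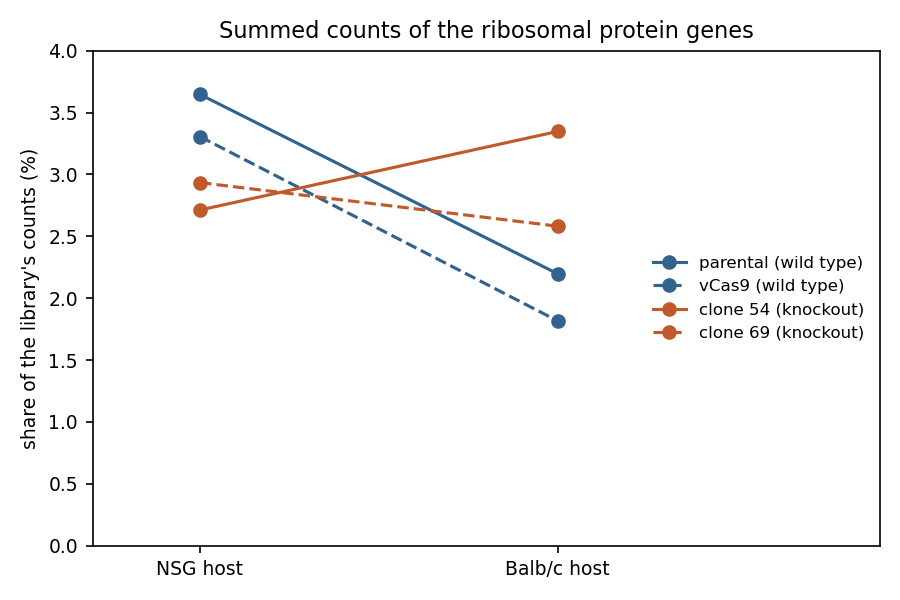
Share of each library's counts (%, y axis) held by the 84 ribosomal protein genes, for NSG and Balb/c hosts (x axis); each point is a library and each line joins the 2 libraries of a cell line. Both wild-type lines go down from NSG to Balb/c (3.65% to 2.20% and 3.31% to 1.82%), while clone 54 goes up (2.71% to 3.35%) and clone 69 goes down slightly (2.93% to 2.58%).

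In wild-type tumors, ribosomal protein mRNAs were lower in Balb/c than in NSG mice. By edgeR's quasi-likelihood test with Benjamini-Hochberg adjustment over all 15310 genes (called below an adjusted p of 0.05, and written as edgeR adjusted p), 38 of 83 members fell and 0 rose, and 0 members were higher at an unadjusted p under 0.05 as well. Over all genes tested, 16.2% were called lower and 15.3% higher. The median log2 fold change of the members was -0.62 (1.54-fold lower), against -0.08 for all genes. Of the 48 tested 60S genes 25 fell (median log2 fold change -0.64), and of the 32 40S genes 12 fell (median -0.60). In the P stalk Rplp0 fell, while the log2 fold changes of Rplp1 and Rplp2 were -0.42 and -0.39 with edgeR adjusted p = 0.15 and 0.17. In a fit blocked by cell line, possible because the same lines grew in both hosts, 9 members were called (10.8% of 83), all lower and all among the 38, against 5.73% of all genes lower. The count was 1 without the NSG parental library (2.35% of all genes lower), 4 without the NSG vCas9 library (3.8%), 2 without the Balb/c parental library (2.39%) and 1 without the Balb/c vCas9 library (2.53%). It was 59 without the Balb/c clone 69 library (21.6%), which is in neither wild-type group. A group left with 1 library is assumed in these fits, and in those given below, to vary like the other groups. The median stayed between -0.78 and -0.43 over all 19 alternatives.

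Rpl26, which sits at the exit of the peptide tunnel, had the largest difference. It was counted at 263 and 280.1 CPM in NSG wild type, 253 and 206 in NSG knockout, 33.1 and 26.8 in Balb/c wild type and 60.6 and 40.04 in Balb/c knockout. Every Balb/c library was thus far below every NSG library, and the log2 fold change of the wild-type lines was -3.18 ± 0.25 (SE; 9.06-fold lower; edgeR adjusted p = 0.00059). Gm15772 had the larger part of the pair in Balb/c: it took 36.0% and 29.3% of the counts of the pair in NSG wild type and 35.3% and 27.1% in NSG knockout, but 85.1% and 84.2% in Balb/c wild type and 83.2% and 84.01% in Balb/c knockout. The pair together was counted at 411 and 396 CPM in NSG wild type, 391 and 282 in NSG knockout, 223 and 170.0 in Balb/c wild type and 360.0 and 250.5 in Balb/c knockout. For the pair, the log2 fold change between hosts in wild-type lines was -1.04 ± 0.26 (SE; edgeR adjusted p = 0.022, the highest of the 19 alternatives for Rpl26, all of which called it). Gm15772 alone had a log2 fold change of 0.33 ± 0.32 (edgeR adjusted p = 0.44). The host difference of the pair was thus smaller than that of Rpl26 alone, and the copy's share of the pair did not overlap between hosts. What set the division of counts between gene and copy was not tested.

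**Figure D2:**
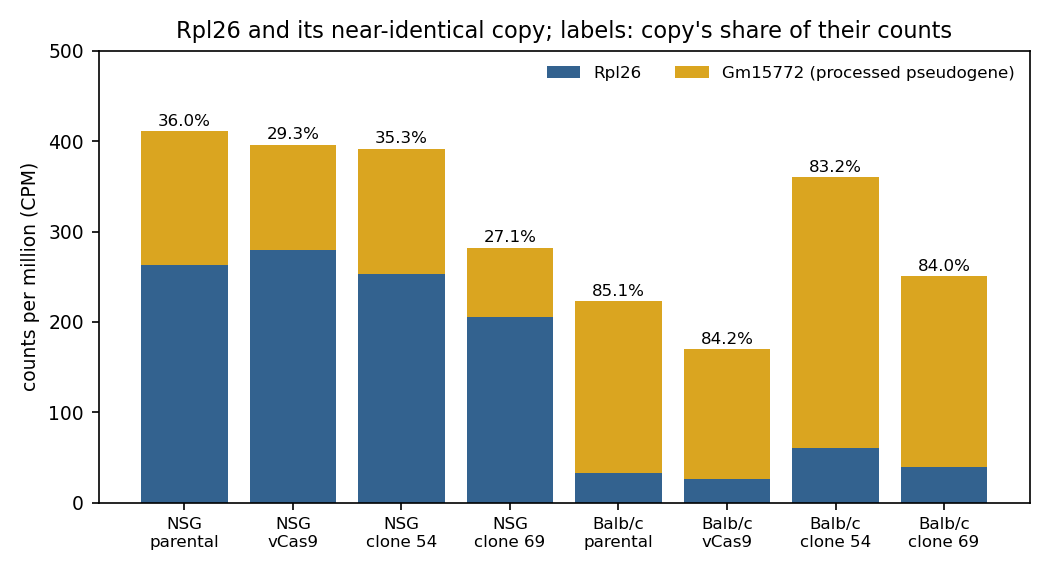
CPM (y axis) of Rpl26 (blue) and of its near-identical pseudogene Gm15772 (yellow), stacked, in each of the 8 libraries (x axis); the number above a bar is the pseudogene's share of the pair's counts. The share is between 27.1% and 36.0% in the 4 NSG libraries and between 83.2% and 85.1% in the 4 Balb/c libraries.

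Of the 33 near-identical pseudogene copies in the deposited tables, which belong to 29 members, 2 held more than 5% of the counts of their pair: Gm15772 and Gm8210, a copy of Rpl29. Gm8210 took 28.5% and 25.5% of its pair in NSG wild type, 23.2% and 27.8% in NSG knockout, 20.6% and 19.1% in Balb/c wild type and 20.6% and 23.3% in Balb/c knockout. The other 31 copies held at most 2.07% of their pair in any library. Besides Gm15772, 3 copies had shares that did not overlap between hosts, all of them small: Rpl34-ps1 held between 1.41% and 2.07% of its pair with Rpl34 in NSG and between 0.206% and 0.419% in Balb/c, Gm6109 between 0.042% and 0.235% of its pair with Rpl30 in NSG and between 0.278% and 1.55% in Balb/c, and Gm11478 between 0.416% and 0.560% of its pair with Rpl13a in NSG and between 0.579% and 0.713% in Balb/c.

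After Rpl26, the largest falls in wild-type lines were in Rps2, Rpl36, Rplp0 and Rpl31. Rps2, a 40S protein near the entry of the mRNA channel, was at 529 and 485 CPM in NSG wild type, 404 and 524 in NSG knockout, 218 and 216 in Balb/c wild type and 326 and 263 in Balb/c knockout. All 4 Balb/c libraries were below all 4 NSG libraries, and the wild-type log2 fold change was -1.22 ± 0.21 (SE; 2.34-fold lower; edgeR adjusted p = 0.0066). Rplp0, the stalk base that carries Rplp1 and Rplp2 and through them recruits translation factors, was at 938 and 937 CPM in NSG wild type, 669 and 756 in NSG knockout, 455 and 426 in Balb/c wild type and 658 and 528 in Balb/c knockout. Its Balb/c wild-type libraries were lowest and its 2 hosts did not overlap, with a log2 fold change of -1.09 ± 0.20 (edgeR adjusted p = 0.0087). Rpl36, a 60S protein, had 221 and 209.7 CPM in NSG wild type against 111 and 79.0 in Balb/c wild type (log2 fold change -1.18 ± 0.24; edgeR adjusted p = 0.011), with 154 and 174 in NSG knockout and 201 and 138 in Balb/c knockout. Rpl31, a 60S protein beside the tunnel exit, had 473 and 402 CPM in NSG wild type against 249 and 173 in Balb/c wild type (log2 fold change -1.06 ± 0.27; edgeR adjusted p = 0.025), with 372 and 261 in NSG knockout and 372 and 280.3 in Balb/c knockout. For these last 2 genes the knockout libraries of the 2 hosts overlapped. Under the block, Rps2, Rpl36 and Rpl31 were still called (edgeR adjusted p = 0.042, 0.042 and 0.039), and Rplp0 was not (0.051). Over the 19 alternatives the highest adjusted p was 0.061 for Rps2, 0.10 for Rpl36, 0.088 for Rplp0 and 0.19 for Rpl31, each without the Balb/c vCas9 library.

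Members lower in every Balb/c library than in every NSG library were few. Rpl26, Rplp0 and Rps2 were the 3 such members (3.61% of 83), against 17.5% of all genes tested. More common was a pattern in which Balb/c wild type stood alone: both of its libraries were below the other 6 for 48 of 83 members (57.8%), against 16.6% of all genes.

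Of the other landmark members, Rpl11, Rps6 and Rpl10 fell in wild-type lines, and Rpl5, Rps3 and Rpsa did not pass. The ribosome stress sensors Rpl5 and Rpl11, which with 5S ribosomal RNA bind Mdm2 when ribosome assembly fails, had log2 fold changes of -0.56 ± 0.23 and -0.69 ± 0.19 (edgeR adjusted p = 0.10 and 0.031). Rpl11 was at 402 and 371 CPM in NSG wild type and 258 and 221 in Balb/c wild type, and Rpl5 at 601 and 530.1 against 436 and 334. Rps6, the 40S substrate of S6 kinase, was at 364 and 304 CPM in NSG wild type, 254 and 214 in NSG knockout, 235 and 193 in Balb/c wild type and 286 and 242 in Balb/c knockout (wild-type log2 fold change -0.64 ± 0.20; edgeR adjusted p = 0.045). Rpl10, which joins the 60S particle last, was at 819 and 673 CPM in NSG wild type, 525 and 519 in NSG knockout, 479 and 454 in Balb/c wild type and 864 and 659.8 in Balb/c knockout (wild-type log2 fold change -0.68 ± 0.22; edgeR adjusted p = 0.047). Rps3 at the mRNA entry and Rpsa of the 40S subunit did not pass (log2 fold changes -0.49 ± 0.21 and -0.59 ± 0.21, edgeR adjusted p = 0.099 and 0.065). Under the block by cell line the calls of Rpl11, Rps6 and Rpl10 were lost (edgeR adjusted p = 0.080, 0.081 and 0.12), and they passed in 12, 9 and 10 of 19 alternatives, with adjusted p of up to 0.25, 0.32 and 0.26. The members with the highest log2 fold changes, none past the threshold, were Rpl39l at 0.91 ± 0.84, Rpl3l at 0.62 ± 0.61 and Rps24, a 40S protein, at 0.01 ± 0.26.

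In knockout tumors the host difference of the members was small and mostly of the opposite sign. Of 83 members, 9 rose and 2 fell in Balb/c, shares of 10.8% and 2.41%, below the 15.7% and 15.4% of all genes called higher and lower. The median log2 fold change was 0.26 (1.20-fold), against 0.02 for all genes, and 70 of 83 members were positive. It was 0.23 over the 60S genes and 0.35 over the 40S genes. By clone, from NSG to Balb/c, 75 members were higher and 8 lower in clone 54, and 57 higher and 26 lower in clone 69. With the block 2 members were called higher and 1 lower (9.24% and 9.56% of all genes). The median was 0.038 with trends in GC content and length removed, where 4 members and 4766 of all 15310 genes were called. It was 0.076 with library totals in place of TMM, with a median of all genes of -0.17. There 3 members were called higher and 2 lower, and 4707 of all 15310 genes were called. Without the clone 54 library from Balb/c mice the median was 0.048. It was 0.43 without the clone 69 library from Balb/c mice, with 18 members higher and 1 lower (14.8% and 14.8% of all genes), and 0.28 with DESeq2, with 14 higher and 2 lower (16.8% and 15.6%).

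**Figure D3:**
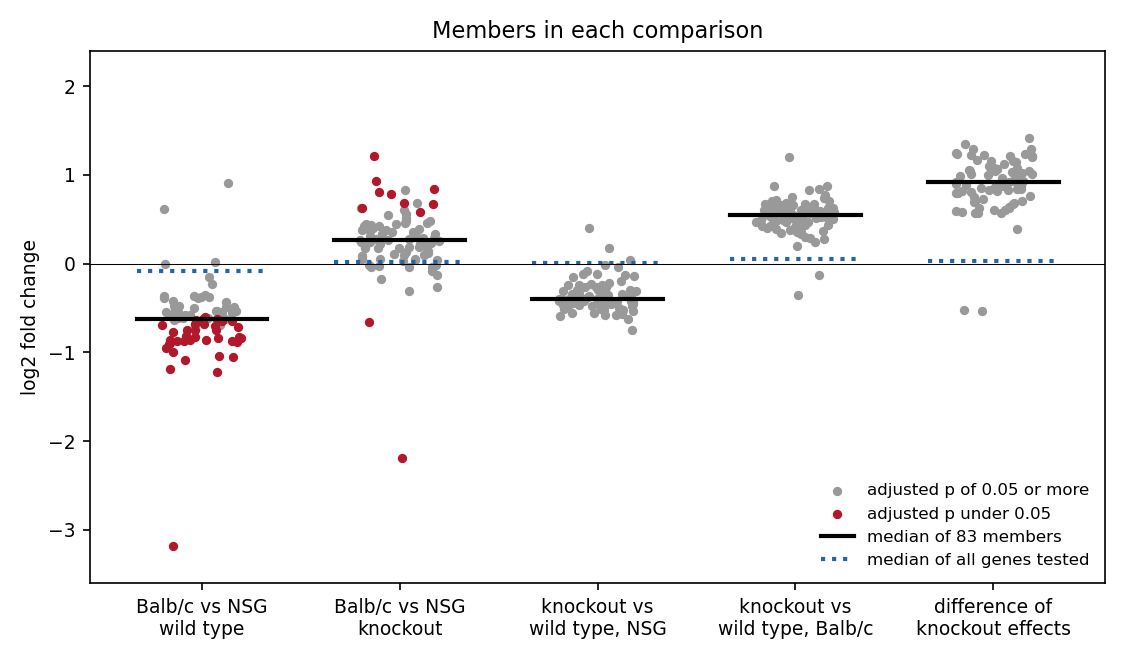
Log2 fold change (y axis) of the 83 tested members in the 4 comparisons and in the difference between the knockout effects of the 2 hosts (x axis); each point is a gene, red where its adjusted p was under 0.05, and bars give the medians of the members (black) and of all genes tested (blue, dotted). The medians of the members are -0.62, 0.26, -0.39, 0.55 and 0.92 from left to right, and red points occur in the 2 host comparisons.

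The members that rose in knockout tumors of Balb/c mice included Rpl34, Rps29, Rpl35a and Rps13. Rpl34, a 60S protein, was at 121 and 127 CPM in NSG knockout and 327 and 248 in Balb/c knockout, with 199 and 153 in NSG wild type and 189 and 163 in Balb/c wild type. It was highest in the Balb/c knockout libraries. The log2 fold change between hosts was 0.00 ± 0.21 in wild-type lines, and in knockout lines it was 1.21 ± 0.21 (2.32-fold; edgeR adjusted p = 0.0049). Rps29 was at 301 and 299 CPM in NSG knockout and 654 and 489 in Balb/c knockout (log2 fold change 0.93 ± 0.21; edgeR adjusted p = 0.013), with 448 and 424 in NSG wild type and 339 and 285 in Balb/c wild type. Rpl35a, mutated like Rps29 in some patients with Diamond-Blackfan anemia, was at 54.1 and 60.9 CPM in NSG knockout and 117 and 90.0 in Balb/c knockout (log2 fold change 0.85 ± 0.19; edgeR adjusted p = 0.013), with 105 and 87.3 in NSG wild type and 71.5 and 64.0 in Balb/c wild type. Rps13, a 40S protein, was at 143 and 167 CPM in NSG knockout and 310.0 and 223 in Balb/c knockout (log2 fold change 0.79 ± 0.23; edgeR adjusted p = 0.036). Rpl37a, Rps23, Rplp2 and Rpl36al were also among the 9. Rpl36al was the 1 member that fell in wild-type lines (log2 fold change -0.71 ± 0.15; edgeR adjusted p = 0.013) and rose in knockout lines (0.58 ± 0.15; 0.024), with 68.3 and 71.9 CPM in NSG wild type, 53.5 and 52.0 in NSG knockout, 44.7 and 41.0 in Balb/c wild type and 84.9 and 72.6 in Balb/c knockout. Both calls of Rpl36al were lost under the block (edgeR adjusted p = 0.056 and 0.079), and they passed in 14 and 9 of 19 alternatives, with adjusted p of up to 0.13 in each. For Rpl34, Rps29, Rpl35a and Rps13 the 2 knockout groups did not overlap. Under the block, Rpl34 and Rpl35a were still called (edgeR adjusted p = 0.022 and 0.046) and the other 7 were not, Rps29 being nearest with 0.051. Rpl34 passed in all 19 alternatives (adjusted p of 0.032 at most), Rpl35a in 16 (0.094 at most) and Rps29 in 14 (0.079 at most).

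Rpl26 and Rps2 fell in both genotypes. In knockout lines, Rpl26 had a log2 fold change of -2.19 ± 0.24 (4.56-fold lower; edgeR adjusted p = 0.00088), and Rps2 of -0.66 ± 0.21 (1.58-fold lower; edgeR adjusted p = 0.044). For the pair of Rpl26 and Gm15772 it was -0.14 ± 0.26 (edgeR adjusted p = 0.71), so that the call ended when the copy's counts were added, while Gm15772 alone rose (log2 fold change 1.25 ± 0.32; edgeR adjusted p = 0.022). The other 18 alternatives called Rpl26 in knockout lines. Rps2 was not called under the block (edgeR adjusted p = 0.14) and passed in 10 of 19 alternatives, with an adjusted p of up to 0.22. The next lowest member was Rpl23a, a 60S docking protein at the tunnel exit, at -0.31 ± 0.28 (edgeR adjusted p = 0.44).

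**Figure D4:**
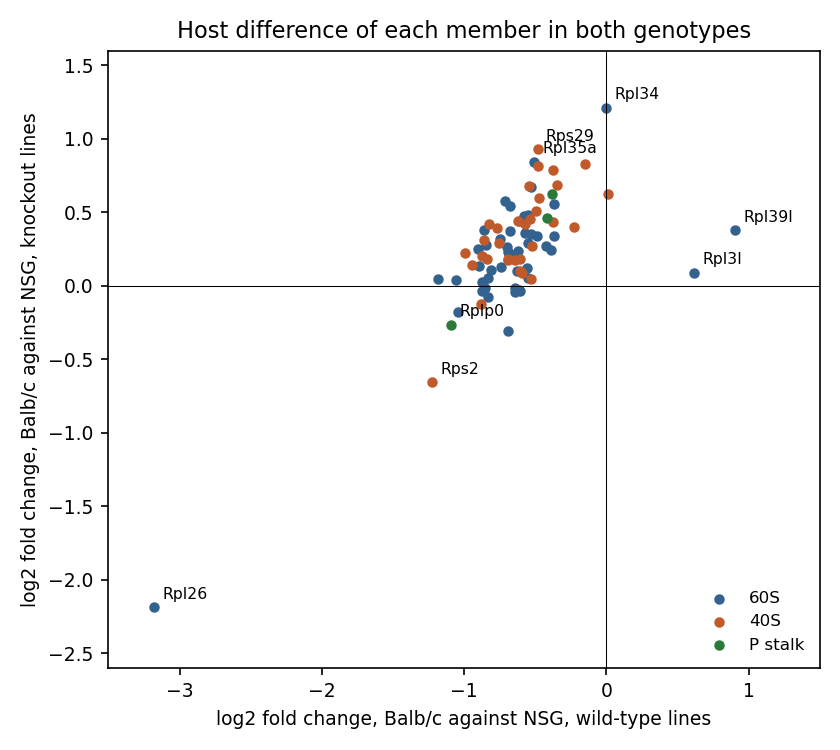
Log2 fold change of Balb/c against NSG for each of the 83 tested members in wild-type lines (x axis) and in knockout lines (y axis), coloured by subunit. Most members lie left of 0 on the x axis and above 0 on the y axis, Rpl26 lies apart at -3.18 and -2.19, and Rpl34 sits at 0.00 and 1.21.

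Among knockout and wild-type tumors of NSG mice, nearly all members had a lower level in the knockout, but none passed the adjusted test. EdgeR called 0 members and 2 of all 15310 genes (0.0131%). DESeq2 called 0 members and 340 genes, and limma-voom 0 members and 1 gene. At an unadjusted p under 0.05, 18 members were lower and 0 higher, against 7.25% of all genes lower. Both knockout libraries were below both wild-type libraries for 72 of 83 members, against 25.8% of all genes, and the median log2 fold change was -0.39 (all genes 0.01). The lowest values were those of Rpl35a (-0.74 ± 0.19; edgeR adjusted p = 0.22), Rps19, the 40S protein most often mutated in Diamond-Blackfan anemia (-0.62 ± 0.24; 0.32), and Rplp2 (-0.58 ± 0.20; 0.29). Rps19 was counted at 404 and 327 CPM in the wild-type and 216 and 259 in the knockout libraries. The highest were Rpl3l at 0.41 ± 0.63, Rpl39l at 0.18 ± 0.91 and Rpl35, a 60S protein at the tunnel exit, at 0.04 ± 0.24.

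Beside this difference, summed macrophage markers were between 3220 and 3292 CPM in NSG wild type and between 1691 and 2191 in NSG knockout, 7 of 7 with a lower fitted value and 0 called, and fibroblast markers between 6504 and 9728 and between 12485 and 12577 CPM, 6 of 6 higher and 0 called. Markers of 4T1 epithelium were between 1059 and 1320 CPM in wild type and between 1908 and 2901 in knockout, 6 of 6 higher and 0 called. Erythroid sums were between 1159 and 1531 and between 1884 and 3461 CPM (5 of 5 higher). Dendritic cell sums were between 104 and 106 and between 73.8 and 100 CPM (5 of 5 lower). Skeletal muscle sums were between 9.28 and 10.9 and between 17.5 and 24.0 CPM (6 of 6 higher). T cell sums were between 7.96 and 8.53 and between 3.75 and 5.97 CPM (6 of 6 lower). None of these genes was called, and the sums of the other marker lists overlapped. The part of these cells in the result was not tested.

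In Balb/c mice the knockout libraries had the higher levels. EdgeR called 0 of 83 members and 27 of all genes (0.176%); at an unadjusted p under 0.05, 54 members were higher and 0 lower, against 16.6% of all genes higher, and both knockout libraries were above both wild-type libraries for 75 members, against 32.9% of all genes. The median log2 fold change was 0.55 (1.46-fold), with 81 of 83 members positive. The tools differed here: DESeq2 called 10 members higher (against 4.76% of all genes higher), and limma-voom 0. With the clone 69 library left out 51 members were called higher (12.9% of all genes higher), and with the clone 54 library left out 0 were, the median then being 0.26. Each of these fits has 1 knockout library in Balb/c, whose spread is taken from the other groups, and the difference between the clones was not tested. Leaving out the vCas9 library gave a median of 0.35.

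The highest values belonged to Rps27l, Rpl36al and Rps29. Rps27l, a paralog of Rps27 known as a p53-induced gene, was at 58.1 and 54.4 CPM in NSG wild type, 52.3 and 59.2 in NSG knockout, 27.2 and 29.3 in Balb/c wild type and 77.1 and 52.9 in Balb/c knockout. Its Balb/c wild-type libraries were the lowest, and the log2 difference of knockout and wild type in Balb/c was 1.20 ± 0.21 (edgeR adjusted p = 0.056). Rpl36al and Rps29 had log2 differences of 0.88 ± 0.15 and 0.87 ± 0.21 (edgeR adjusted p = 0.056 and 0.060). The lowest values were Rpl39l at -0.35 ± 0.79, Rpl3l at -0.12 ± 0.60 and Rps3a1, a 40S protein, at 0.20 ± 0.21.

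Beside these values, macrophage markers summed to between 2121 and 2445 CPM in Balb/c wild type and between 4322 and 10674 in Balb/c knockout (7 of 7 higher, 0 called), and neutrophil markers to between 5905 and 7539 and between 518 and 2501 CPM (6 of 6 lower, 0 called). Endothelial markers summed to between 172 and 232 and between 393 and 446 CPM (5 of 5 higher, 0 called). Erythroid markers summed to between 1739 and 1887 and between 331 and 1570 CPM (5 of 5 lower, 0 called). Adipocyte sums were between 35.4 and 83.02 and between 200 and 265 CPM (4 of 5 higher, 0 called). NK cell sums were between 103 and 169 and between 177 and 207 CPM (5 of 5 higher, 0 called). The sums of the other marker lists overlapped. Markers of 4T1 epithelium summed to between 705 and 1773 CPM in wild type, and in the knockout to 694 CPM in clone 54 and 3754 CPM in clone 69. Their part in the result was not tested.

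The 2 knockout differences had opposite signs, and the test of that difference itself gave 0 members and 0 genes (0.0%) at an adjusted p under 0.05 by edgeR. At an unadjusted p under 0.05, 67 of 83 members had a more positive knockout difference in Balb/c and 0 a more negative, against 12.4% of all genes. The median of the difference was 0.92 on the log2 scale (all genes 0.03), and 0.89 over the 60S genes alone. Both knockout libraries were below both wild-type libraries in NSG and above them in Balb/c for 68 of 83 members (81.9%), against 9.15% of all genes. The largest differences were those of Rps29 (1.41 ± 0.29; edgeR adjusted p = 0.089) and Rpl35a (1.35 ± 0.27; 0.084). Rpl39l and Rpl3l, the members near the detection limit, were the 2 below 0 (both -0.53), and Rpl23a was lowest of the rest at 0.39 ± 0.40. DESeq2 called 25 members, all more positive in Balb/c (2.63% of all genes), and limma-voom 0. Without the clone 69 library from Balb/c mice, edgeR called 56 members, all more positive (7.94% of all genes), and without the clone 54 library 0, with a median of 0.62. Here too the Balb/c knockout group is 1 library with its spread taken from the other groups.

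Paralogs were compared with their parents per length of the same longest transcripts, on which the ratios depend. These lengths were 552 bases for Rpl22l1 and 2051 for Rpl22. Rpl22l1, whose parent Rpl22 it can replace in the ribosome, stood at 108% and 115% of Rpl22 in NSG wild type, 87.6% and 97.3% in NSG knockout, 148% and 121% in Balb/c wild type and 141% and 137% in Balb/c knockout, so that all 4 Balb/c libraries were above all 4 NSG libraries. Rps27l stood between 4.97% and 22.03% of Rps27, lowest in the 2 Balb/c wild-type libraries at 4.97% and 8.55%. Rps27 itself was at 433 and 355 CPM in NSG wild type, 312 and 214 in NSG knockout, 436 and 273 in Balb/c wild type and 492 and 441 in Balb/c knockout, with libraries of a group far apart. Rpl36al was between 14.1% and 20.5% of Rpl36a, with the 2 Balb/c knockout libraries highest at 18.7% and 20.5%. Rpl7l1 was between 3.05% and 4.32% of Rpl7.

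Counts for the tissue-restricted paralogs were few. Rpl3l had between 11 and 37 counts and Rpl39l between 3 and 24 counts per library, which made Rpl3l at most 0.588% of Rpl3 and Rpl39l at most 0.424% of Rpl39. Rpl10l, the testis paralog of Rpl10, had none; a count of 0 allows a level of up to 0.321 CPM, from 3 counts, in the shallowest case among the 8 libraries. Such floors cover counting error only. Rps4x, the X-linked 40S gene, stood 6 of 84 in level per kb. Rps4l matched by symbol but was not a member, because the annotation lists it as a pseudogene.

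Rack1 and Fau encode ribosomal proteins but lie outside the symbol rule. Rack1, the 40S scaffold for signalling proteins, was at 1017 and 903 CPM in NSG wild type, 732 and 665 in NSG knockout, 574 and 492 in Balb/c wild type and 873 and 677 in Balb/c knockout, and it fell between hosts in wild-type lines (log2 fold change -0.85 ± 0.22; edgeR adjusted p = 0.024). Fau, which encodes Rps30 fused to a ubiquitin-like protein, was at 334 and 308, 257 and 222, 262 and 239.6, and 371 and 322 CPM in the same order of groups, and passed in no comparison.

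Genes that serve the ribosome were read from lists, against 16.2% of all genes lower and 15.3% higher in wild-type lines and 15.4% and 15.7% in knockout lines. Of 17 other genes with TOP mRNAs, most but not all of them translation factors, 5 fell between hosts in wild-type lines (median log2 fold change -0.56). Among them were Eef1g, a subunit of elongation factor 1 (-0.92 ± 0.18, edgeR adjusted p = 0.0094), and Naca, of the nascent chain complex (-0.66 ± 0.17, edgeR adjusted p = 0.025). Eef1d and Nap1l1 fell too. In knockout lines Nap1l1 alone of the 17 fell (-0.72, edgeR adjusted p = 0.044). Of 14 genes of the mTORC1 axis that controls TOP translation, 1 rose in wild-type lines, Eif4ebp2, a repressor of cap-dependent initiation (0.89 ± 0.16; edgeR adjusted p = 0.0077), and none was called in knockout lines by edgeR, where 4 of 14 had an unadjusted p under 0.05 against 6637 of all 15310 genes. Of 13 genes of RNA polymerase I and its factors, 3 fell in wild-type lines (Polr1b, Polr1c and Nolc1) and Max, the partner of Myc, rose. In knockout lines Myc fell (-0.90 ± 0.24; edgeR adjusted p = 0.027), as did Polr1a, and Max rose (0.72).

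Nucleolar assembly factors process ribosomal RNA and build the subunits. Of 32 in wild-type lines, 19 fell and 0 rose (median log2 fold change -0.69), where 16.2% of all genes were lower, led by Grwd1 (-1.25 ± 0.28; edgeR adjusted p = 0.015), Rrs1, Nle1 and Wdr12. Nop56, the core of the box C/D particle, was at 158 and 109 CPM in NSG wild type, 84.7 and 81.1 in NSG knockout, 79.9 and 64.4 in Balb/c wild type and 66.8 and 70.9 in Balb/c knockout, so that it stood apart in NSG wild type. In knockout lines 3 of 32 fell, below the 15.4% of all genes, namely Gar1, Utp20 and Brix1, with a median of -0.23 where that of the members was 0.26.

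The 78 mitochondrial ribosomal protein genes, whose products form a separate ribosome, gave 22 lower and 1 higher (Mrpl33) between hosts in wild-type lines, with a median log2 fold change of -0.60, and 1 higher in knockout lines (Mrps14; median 0.04). Their median for knockout against wild type was -0.02 in NSG, where the cytosolic genes had -0.39, and 0.64 in Balb/c, where the cytosolic genes had 0.55; 0 of the 78 were called by edgeR in either host, with 0 and 49 at an unadjusted p under 0.05, against 2148 and 4729 of all 15310 genes. Of 8 genes tied to nucleolar stress, namely Trp53 itself and targets of p53, Sesn2 rose in wild-type lines. In knockout lines Mdm2 rose (1.21 ± 0.24, edgeR adjusted p = 0.0081), Bbc3 rose and Zmat3 fell. Mdm2, the ubiquitin ligase bound by Rpl5 and Rpl11, was at 248 and 209 CPM in NSG wild type, 143 and 98.1 in NSG knockout, 344 and 379 in Balb/c wild type and 245 and 312 in Balb/c knockout.

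Proliferation markers moved with the host. Their summed level was between 986 and 1133 CPM in NSG wild type and between 551 and 562 in Balb/c wild type, 8 of 10 called lower, and between 738 and 1209 in NSG knockout and between 475 and 647 in Balb/c knockout, 7 of 10 called lower and 1 higher. Their log2 medians were -1.33 and -1.29, while those of the ribosomal protein genes were -0.62 and 0.26. The immune markers likewise differed between hosts in both genotypes: 6 of 6 T cell genes and 5 of 5 NK cell genes rose in each. Of 7 macrophage genes, 7 rose in knockout lines, and 1 rose and 1 fell in wild-type lines. Neutrophil genes gave 3 higher of 6 in wild-type lines and 1 higher and 1 lower in knockout lines. B cell genes gave 5 of 5 higher in wild-type and 3 of 5 in knockout lines, and dendritic cell genes 3 of 5 and 4 of 5 higher. Fibroblast genes gave 1 of 6 lower in wild-type and 5 of 6 in knockout lines (median log2 fold changes -0.76 and -1.61), and adipocyte genes 2 of 5 and 4 of 5 lower (-2.17 and -3.55). In knockout lines 1 adipocyte gene went the other way (log2 fold change 1.15, not called). The summed adipocyte level there was higher in Balb/c, between 200 and 265 CPM against 105 to 139 in NSG. Endothelial genes gave 2 of 5 lower in wild-type and 1 of 5 higher in knockout lines. Erythroid genes gave 1 of 5 higher in wild-type lines, and 1 higher and 2 lower in knockout lines. Of 6 genes of 4T1 epithelium, 0 were called in wild-type lines and 1 was lower in knockout lines. Skeletal muscle genes gave no call. Of all genes, 16.2% were lower and 15.3% higher in wild-type lines, and 15.4% and 15.7% in knockout lines. The part of these cells in the values of the ribosomal protein genes was not tested.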

How the data were processed

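RNA-seq of 8 libraries from mouse tumors was used, with 1 file of counts per library. The values are raw counts per Ensembl gene as the authors deposited them; per the submitters' processing notes, cutadapt 1.13, STAR, HTSeq 0.6.1p1 and DESeq2 and the builds mm10 and hg19 were named, without their role. The annotation release, the strand setting and the treatment of reads that fit several genes are not given in the sources used here, so members that overlap other genes (35 of 84, mostly with small nucleolar RNA genes) and members with near-identical copies are uncertain. Symbols were found for 24942 of 25006 identifiers, and positions, types and lengths came from GENCODE M21 (GRCm38, the assembly of mm10) for 24991.

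Counts were fitted with edgeR 4.0.16 in R 4.3.3 (TMM, filterByExpr, glmQLFit and glmQLFTest) over all 8 libraries with 4 group means, which left 4 residual degrees of freedom; the common biological coefficient of variation was 0.244. P-values were adjusted by Benjamini and Hochberg over 15310 genes, with a threshold of 0.05. CPM values use TMM-scaled library totals, and 3 counts equal between 0.159 and 0.321 CPM. Standard errors come from the log2 fold change and the F statistic. The same lines grew in both hosts, so the cell line pairs the libraries; the deviations of a line correlated between hosts with r = 0.087 for the wild-type lines and -0.35 for the clones over all genes, and 0.34 and -0.48 over the members. The fit with the line as a block leaves fewer residual degrees of freedom than the main fit, and so less power to call a gene. In wild-type lines the members' median log2 fold change between hosts was -0.63 with the block and -0.62 without it. DESeq2 1.42.0 and limma 3.58.1 (voom) were alternatives. The labels do not say that libraries are separate animals, so p-values measure the spread between these libraries. Within a group, the libraries are of different lines. The procedure was tested on simulated data.

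Copies were found with blastn 2.17.0. The members, the 7 pathway lists, the 13 marker lists and the rule for naming genes were chosen with earlier results of these data known. The text names landmark members, the forms ending in l with their parents, and per comparison up to 5 members per direction past the threshold by size, or the 3 highest and 3 lowest where fewer than 3 passed; up to 4 genes per direction were named from each pathway list. Others, such as Nop56, Rps12, Gm8210, Rpl29 and Rpl21, were named after their values were seen. Some genes that the naming rule covers are not reported here.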

Additional observations from a re-analysis of the deposited data

Results flagged for a closer look

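The ratio of knockout to wild type in the summed share of the ribosomal protein genes was 0.812 in NSG mice and 1.48 in Balb/c mice. Both knockout libraries were below both wild-type libraries in NSG, and both were above them in Balb/c. The difference of these 2 ratios was not tested.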

How the results depend on the processing

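The sign of the members' median held in every alternative run, 18 or 19 for each comparison. Its range was -0.78 to -0.43 between hosts in wild-type lines and 0.038 to 0.43 in knockout lines, -0.46 to -0.31 for the knockout in NSG, 0.26 to 0.72 in Balb/c and 0.62 to 1.10 for the difference of the 2. Removing trends in GC content and length brought the host median in knockout lines to 0.038, where that of all genes was 0.036. Leaving out each library in turn gave medians from 0.048 in knockout lines between hosts, from 0.26 for the knockout in Balb/c and from 0.62 for the difference.

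Counts of called members in wild-type lines were 24 with RLE size factors, 62 with library totals, 61 with only the libraries compared, 9 with the cell line as a block (2073 genes) and between 1 and 59 without a library (858 to 6361 genes). In knockout lines they were 5 with library totals, 4 with the GC and length trends removed, 2 with only the libraries compared (2450 genes), 3 with the block (2878 genes) and between 3 and 19 without a library (2461 to 4640 genes). Over all genes, 4825 were called in wild-type lines in the main fit. This count was 4621 with RLE size factors, 5220 with library totals and 6838 with only the libraries compared. In knockout lines, 4757 genes were called in the main fit, 4707 with library totals and 4766 with the GC and length trends removed. Library totals moved the median of all genes from -0.08 to -0.24 in wild-type and from 0.02 to -0.17 in knockout lines. They brought the higher genes from 48.6% to 36.5% and from 50.5% to 37.3% of all calls.

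For the knockout in NSG, the count of called genes was 340 with DESeq2, 1 with limma-voom, 133 without a filter, 6 with trends removed, 1 with only the libraries compared and 0 to 1 without a library. In Balb/c it was 94 with RLE, 2144 with DESeq2, 1774 without a filter, 0 with only the libraries compared and 0 to 3886 without a library; called members were 10 with DESeq2, 4 without a filter and 0 to 51 without a library. For the difference, called genes were 974 with DESeq2, 674 without a filter and 0 to 2370 without a library, and called members 25, 3 and 0 to 56. The block changed no count of called members there. The causes were not tested.

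Of 2339 values of named members under alternatives, 2075 kept their sign and side of the threshold, 138 lost and 75 gained a call, 51 uncalled values changed sign and 0 called values did. Adding near-identical pseudogene counts, an alternative chosen after seeing the data, ended the call of Rpl26 in knockout lines. Adding -ps counts moved the members' share by less than the spread of the libraries. Leaving Mir6236 out of the total brought the share of the NSG clone 54 library from 2.71% to 2.88%, a shift above its group's SD of 0.157. The mean of NSG knockout went from 2.82% to 2.93%, and that of NSG wild type from 3.48% to 3.51%.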
